A study of Macaca mulatta with 24 samples.

Results

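Airway epithelial cells of 4 rhesus macaques that received only filtered air were compared at 2 times: at the end of 5 daily sessions in the exposure system, and 7 days later, after a recovery week in standard culture. The comparison used 8 of the 24 RNA sequencing libraries of the study, 4 at 5 days and 4 after recovery, and asks what changed over the recovery week in cultures that never received wood smoke. The cells were primary tracheobronchial epithelium of adult female animals, grown to confluence on porous inserts and then differentiated at an air–liquid interface in medium with retinoic acid. Each session of filtered air lasted 6 hours. Both groups shared the differentiation and all 5 sessions, so recovery libraries differ from 5-day libraries in the end of the sessions and in the added days in culture, and these cannot be told apart. The labels do not say whether RNA of both times was extracted or sequenced together. The ages of animals S1 to S4 were 5463, 2930, 2238 and 1128 days, with body weights of 5.59, 7.17, 4.56 and 3.18 kg. Each animal gave 1 library per group, so libraries were paired by animal.

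The airway lining is renewed by basal cells, which anchor to the underlying matrix through hemidesmosomes and give rise to secretory cells and multiciliated cells. Retinoic acid favours the mucociliary fate, and a lack of it favours squamous cells that build a cornified envelope. Cultures at an air–liquid interface keep these programmes in balance, and they also carry stress pathways (of the endoplasmic reticulum, of heat shock, of low oxygen) and a circadian clock, whose phase can be reset by a medium change.

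Values are normalized counts per gene and library, described in the processing section, and lists of values run in the order S1 to S4. Of the 35432 genes in the table, 13180 reached a value of 10 in 4 or more of the 8 libraries, and these were tested. The 8 libraries summed to 12.5 to 15.2 M normalized counts. The 5-day library of S1 stood apart. Its median correlation with the other 23 libraries was 0.860, against 0.931 to 0.956 for those libraries, and its approximate depth of 9.51 M reads was the lowest of all 24. Mitochondrially encoded genes made up 8.49% of its total, against 2.95 to 3.67% in the other 5-day air libraries and 3.81 to 6.96% after recovery. That share was also high in the 1-day air library of S1, at 8.82%. Ribosomal protein genes made up 4.66% of the total of the 5-day S1 library, against 2.11 to 2.27% in the 5-day libraries of S2 to S4. In S1 the change from 5 days to recovery passed 1 on the log2 scale for 40.9% of the genes tested, against 5.47 to 7.38% in S2 to S4. Each result is therefore given with all 4 animals and without S1.

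**Figure D1:**
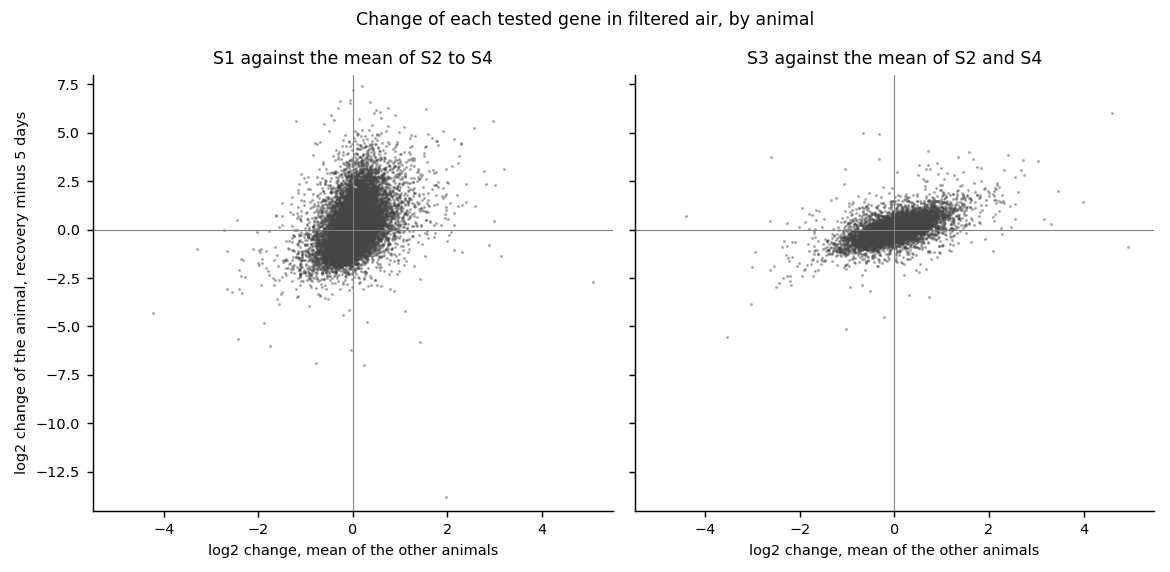
Log2 change of each of the 13180 tested genes from 5 days to recovery in filtered air, in S1 against the mean of S2 to S4 (left) and in S3 against the mean of S2 and S4 (right), where each point is 1 gene. The S1 cloud is stretched along the vertical axis (SD over genes 1.31 in S1 and 0.519 in S3), and the correlation over genes was 0.413 in S1 and 0.587 in S3.

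The tissue label held in the marker genes. The epithelial markers EPCAM, CDH1, KRT18 and KRT19 summed to 58192 to 64664 normalized counts in the 5-day libraries of S2 to S4 and to 42985 to 44341 after recovery. In S1 the sums were 127160 and 50277. KRT19 made up most of each sum. In S2 to S4 it read 58350, 51428 and 49740 at 5 days and 36163, 35401 and 34141 after recovery. In the same animals CDH1 read 2064, 3088 and 2748 and then 2380, 3527 and 3249. EPCAM was lower after recovery in S2 to S4, and KRT18 was higher in S2 and S4 and lower in S3. Basal markers (TP63, KRT5, NGFR) and ciliated markers (FOXJ1, DNAH5, TPPP3, RSPH1) were present in every library. The club cell secretoglobin SCGB1A1 was low, between 3.43 and 42.8. The 4 secretory markers in the table, MUC5B among them, differed widely between animals. They summed to 5007 in S1 and 80.2 to 3685 in S2 to S4 at 5 days. After recovery they summed to 8751 in S1 and 10.2 to 5185 in S2 to S4. The leukocyte gene PTPRC did not exceed 1.30 in any of the 8 libraries, the fibroblast genes LUM and POSTN were at 0, and DCN did not exceed 2.15. Other members of these lists were not low: PDGFRA lay between 340 and 685, the lysosomal gene CD68 between 521 and 932, and the lysozyme gene LYZ, which secretory cells also express, between 1471 and 3979. Of 12 fibroblast genes 4 were high enough to test, and of 13 immune genes 3. Summed levels of the 12 lay between 410 and 759 at 5 days, with 671 to 751 after recovery. Those of the 13 lay between 3345 and 4634 and then between 2422 and 3496. The endothelial cadherin CDH5 was also at 0, while the endothelial receptor gene KDR reached 3525, 19634, 16834 and 20429 at 5 days and 6969, 11243, 9538 and 12729 after recovery. Of 10 endothelial and muscle genes 5 were high enough to test and 2 fell, KDR (log2 -0.77) and PECAM1 (-1.24), and the 10 genes summed to 17145 to 20977 in S2 to S4 at 5 days and to 9799 to 13078 after recovery (4136 and 7279 in S1). Their part in the other results was not tested. In S2 to S4 mitochondrially encoded genes made up a larger share after recovery (5.89, 5.10 and 3.81%) than at 5 days (3.59, 3.67 and 2.95%), and the part of that share in the results was not tested. In bulk RNA, fewer cells of a type and less RNA per cell cannot be told apart, and this holds for each cell type list below.

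With all 4 animals, 4 genes passed an adjusted p of 0.05 (0.0303% of the genes tested), 3 higher (0.0228%) and 1 lower (0.00759%) after recovery, and 2648 genes had an unadjusted p under that value. Leaving out S2, S3 or S4 instead of S1 left none past the threshold, with 1420, 1779 and 1500 at an unadjusted p under 0.05. Without S1, 3288 genes passed (24.9%), of which 1660 were higher (12.6%) and 1628 lower (12.4%), and 382 of them also changed by at least 1 on the log2 scale. The pair of S1 took no part in that choice. S1 moved in the same direction for 1428 of the 1660 higher genes (86%) and for 1238 of the 1628 lower genes (76%), and the median log2 change of S1 was 1.09 over the former and −0.81 over the latter. Over all genes tested S1 moved upward for 50.8%, with a median of 0.02. The values of the 2 groups did not overlap for 2177 genes with 4 animals (16.5%) and for 3432 without S1 (26%), and every animal moved in the same direction for 5436 (41.2%) and 7384 genes (56%). The count without S1 depends on the pairing: the same 6 libraries without animal as a term gave 185 genes. It fell to 553 when the variances were not allowed to follow the mean. With no filter on low values, 20011 genes were tested and none passed, with 4695 at an unadjusted p under 0.05, while a minimum of 50 gave 3155 genes.

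In all that follows, "rose" and "fell" in air are used of genes that passed in the fit of S2 to S4. Log2 fold changes with their standard errors and adjusted p are of that fit (limma, 3 animals) unless 4 animals or smoke cultures are named. Apart from the 4 genes described next, none passed with all 4 animals, and for the 144 other genes of the naming rule the adjusted p then lay between 0.0644 and 0.959. The air count of each list below stands against the 12.6% of all genes tested that rose and the 12.4% that fell.

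CYP1B1, SLC7A5, LRRC4 and PFKFB4 were the genes that passed with and without S1. CYP1B1 (ENSMMUG00000013945) encodes a cytochrome P450 that is a classic target of the aryl hydrocarbon receptor and also metabolizes retinoids and steroids. It read 35.5, 65.1, 31.0 and 38.7 at 5 days and 322, 465, 367 and 381 after recovery. The recovery libraries were all far above the 5-day libraries, with no overlap. The log2 fold change was 3.19 ± 0.19 with 4 animals (adjusted p = 0.031) and 3.20 ± 0.16 without S1 (adjusted p = 6.5e-07), a 9.20-fold difference. The low point was the 5-day time: after 1 day in air the gene had read 173, 206, 244 and 308.

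SLC7A5 (ENSMMUG00000052851) encodes the light chain of the large neutral amino acid transporter LAT1. It read 148, 207, 219 and 188 at 5 days and 801, 844, 790.4 and 827 after recovery, and the spread between animals was small beside the difference at both times. The log2 fold change was 2.11 ± 0.16 with 4 animals (adjusted p = 0.031) and 2.00 ± 0.10 without S1 (adjusted p = 5.8e-07). LRRC4 (ENSMMUG00000015436), a leucine-rich repeat membrane protein known from synapses, read 24.1, 25.2, 16.5 and 14.6 and then 203, 157, 122 and 116. Its log2 fold change was 2.83 ± 0.21 with 4 animals (adjusted p = 0.031) and 2.77 ± 0.22 without S1 (adjusted p = 9.4e-06).

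PFKFB4 (ENSMMUG00000000591), a bifunctional enzyme that sets the level of the glycolytic activator fructose 2,6-bisphosphate and a target of hypoxia-inducible factors, was the gene that fell. It read 987, 1546, 672 and 821 at 5 days and 184, 279.8, 106 and 208 after recovery, without overlap. The log2 fold change was -2.38 ± 0.16 with 4 animals (adjusted p = 0.031) and -2.36 ± 0.12 without S1 (adjusted p = 7.0e-07). S2 had the highest level at both times.

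**Figure D2:**
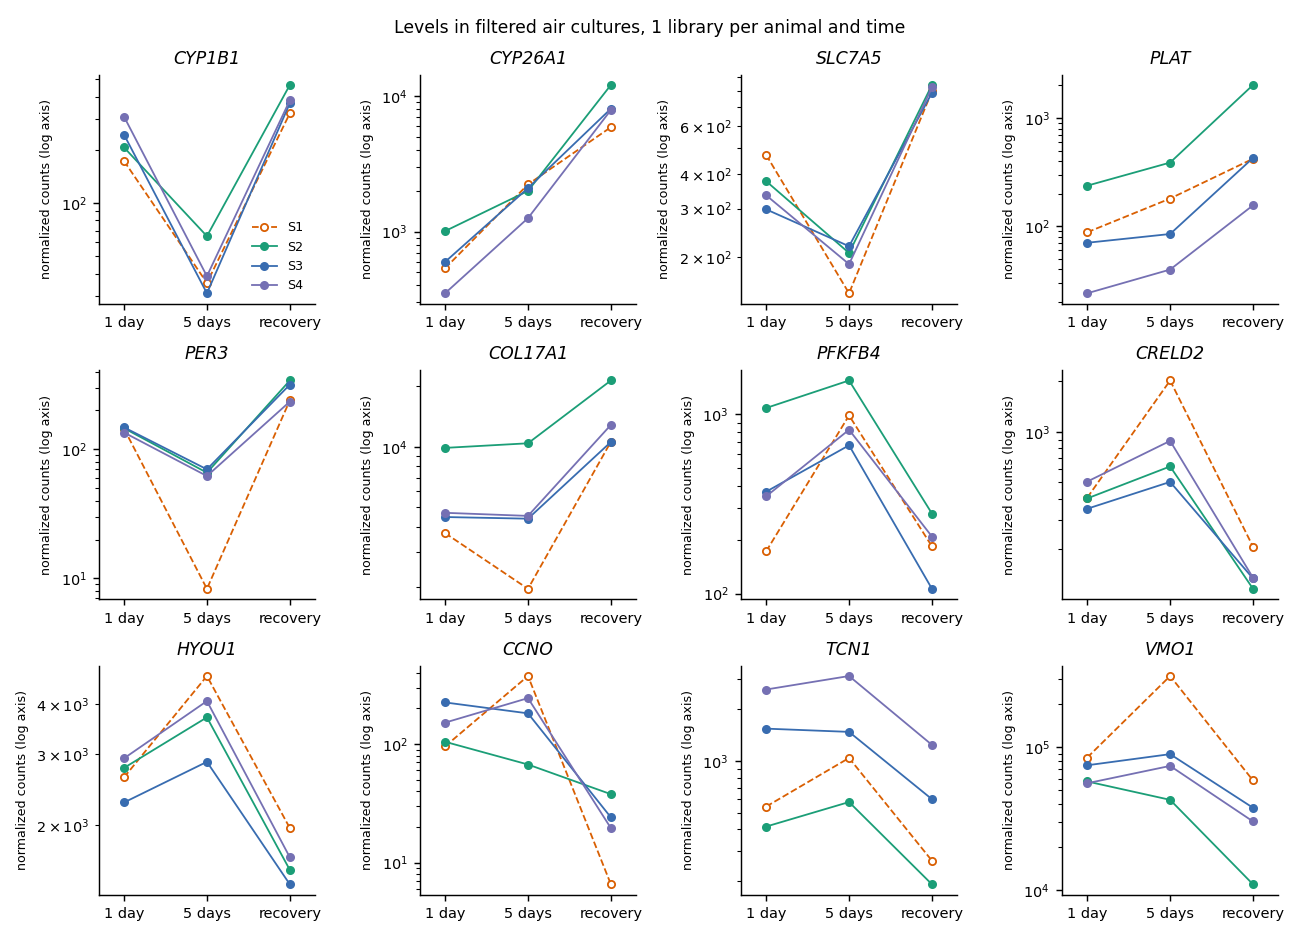
Normalized counts (log axis) of 12 genes in filtered air cultures after 1 day, 5 days and recovery, where each point is 1 library and lines join the libraries of an animal (S1 dashed, open points). CYP1B1, SLC7A5 and PER3 are lowest at 5 days and highest after recovery in all 4 animals, PFKFB4, CRELD2 and HYOU1 are highest at 5 days in all 4, and the S1 library at 5 days leaves the other animals in PER3, CRELD2 and VMO1.

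PLAT, SCNN1G and SLC7A11 were among the largest rises without S1. PLAT, the tissue plasminogen activator, rose from 180.1, 388, 84.7 and 39.7 to 420.5, 2023, 428 and 156. Its level differed so much between animals that the groups overlapped, yet the change within S2 to S4 was even, at 2.22 ± 0.12 on the log2 scale (adjusted p = 9.7e-07). SCNN1G, the gamma subunit of the epithelial sodium channel, rose from 72.5, 11.6, 16.5 and 14.6 to 172, 77.7, 113 and 83.6, by 2.59 ± 0.25 on the log2 scale (adjusted p = 3.7e-05). S1 had the highest level at both times. SLC7A11, the cystine transporter that supplies glutathione synthesis, read 1.26, 25.9, 8.09 and 26.9 at 5 days and 83.4, 158, 75.4 and 116 after recovery, and its log2 fold change was 2.56 ± 0.25 (adjusted p = 4.2e-05).

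Also among the 12 largest rises were CYP26A1 and PER3, described below, CEMIP, MAP1B and GATA3. CEMIP, which takes part in hyaluronan breakdown, read 43.6, 147, 32.0 and 34.8 and then 480.2, 597, 171 and 176, with S1 and S2 highest after recovery (log2 2.23 ± 0.15, adjusted p = 3.9e-06). MAP1B, a microtubule-associated protein, rose from 24.2, 47.2, 37.2 and 41.8 to 87.2, 187, 174 and 236 without overlap (log2 2.21 ± 0.17, adjusted p = 9.4e-06). GATA3, a transcription factor of epithelial and lymphoid differentiation, was uneven across animals. It read 88.5, 79.9, 54.8 and 50.2 at 5 days and 104, 709.6, 239.7 and 114 after recovery, so that S2 rose most and S1 hardly moved (log2 2.14 ± 0.27, adjusted p = 2.3e-04).

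The 12 largest falls were PFKFB4, CRELD2 and CCNO, the last 2 described below, and 9 genes of different roles. CDC20B, expressed in cells that are amplifying centrioles to become multiciliated, read 125, 55.7, 92.0 and 119 at 5 days and 5.45, 7.78, 0.962 and 4.65 after recovery. That is a 18.7-fold difference (log2 -4.22 ± 0.48, adjusted p = 1.1e-04), and the recovery values are close to the level of a few reads. SFTPA1, a surfactant collectin, read 68.9, 8.18, 167 and 1032 and then 12.0, 0.984, 30.7 and 224. The groups overlapped because S4 expressed it far above S2, but it was lower in all 4 animals (log2 -2.27 ± 0.21, adjusted p = 2.9e-05).

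SLCO1A2, an organic anion transporter, followed the same pattern, with 331, 201, 181 and 2297 at 5 days and 154, 15.4, 22.3 and 879 after recovery (log2 -2.66 ± 0.30, adjusted p = 1.1e-04). CXCR2, the receptor of neutrophil-attracting chemokines, fell from 115, 73.0, 201 and 161 to 54.9, 8.94, 71.7 and 52.4 without overlap (log2 -1.99 ± 0.26, adjusted p = 3.1e-04). CEACAM7, a cell adhesion molecule of epithelia, fell from 159, 44.9, 187 and 62.3 to 17.9, 10.3, 31.8 and 8.86 (log2 -2.40 ± 0.26, adjusted p = 8.6e-05). COL10A1 (log2 -3.31), the myoglobin gene MB (-2.36), SEC14L3 (-2.11) and GBA3 (-1.93) also fell. In each of them S2 had the lowest recovery value (0 in COL10A1, GBA3 and MB, and 6.66 in SEC14L3), so the size of these folds depends on the pseudocount.

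Retinoic acid genes moved in both directions. Of 20 members tested, 8 rose and 5 fell, and the list's median log2 change was 0.18, against −0.0039 over all genes. CYP26A1, which degrades retinoic acid and is itself induced by it, had the largest rise of the list. It read 2227, 1994, 2091 and 1256 at 5 days and 5890.1, 12072, 8064 and 7886 after recovery, a 5.27-fold difference (log2 2.40 ± 0.11, adjusted p = 5.6e-07; with 4 animals 2.15 ± 0.24, adjusted p = 0.066). After 1 day in air it had read 535, 1007, 597 and 350.1, so its levels ran upward over the 3 times in every animal.

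A second enzyme of the same family, CYP26B1, read 1.61, 50.4, 157 and 109.8 at 5 days and 194, 249.8, 313 and 291 after recovery (log2 1.56 ± 0.20, adjusted p = 2.7e-04). The 5-day library of S1 was the lowest. RARB, a retinoic acid receptor induced by its ligand, rose from 69.1, 339, 483 and 411 to 645, 768, 1008 and 931 (log2 1.14 ± 0.08, adjusted p = 6.8e-06). ALDH1A3, which makes retinoic acid from retinaldehyde, read 1169, 3619.9, 1346 and 1516 and then 5959, 7133, 3309.6 and 2917 (log2 1.07 ± 0.08, adjusted p = 7.2e-06). The corepressor NRIP1, the vitamin A receptor STRA6 and the retinol dehydrogenase RDH10 rose too, by 0.56 to 0.89 on the log2 scale. Falls were seen in RARRES1, named for its response to retinoids (log2 -1.66, adjusted p = 0.0032), ALDH1A1 (-0.52), RXRB (-0.34) and RXRA (-0.31). The list thus held rises in synthesis, degradation and a receptor, beside falls in another synthesizing enzyme and in RXR receptors.

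Clock genes moved in both directions. In the circadian clock, ARNTL with CLOCK or NPAS2 activates the PER, CRY and REV-ERB (NR1D1, NR1D2) genes and the PAR bZIP factors. The REV-ERB proteins in turn hold ARNTL and NPAS2 down. Of 18 members tested, 7 rose and 4 fell. PER3 read 8.31, 65.9, 70.0 and 62.1 at 5 days and 239, 341, 317 and 234 after recovery (log2 2.14 ± 0.15, adjusted p = 3.9e-06; with 4 animals 2.78 ± 0.48, adjusted p = 0.097). The 5-day values of S2 to S4 lay within 62.1 and 70.0, and S1 was far below them.

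The PAR bZIP gene HLF read 80.6, 94.5, 255 and 108 at 5 days and 302, 251, 839.8 and 346 after recovery (log2 1.60 ± 0.12, adjusted p = 6.8e-06). TEF, of the same family, rose from 391, 321, 271 and 257 to 556, 1097, 873 and 586 (log2 1.55 ± 0.12, adjusted p = 6.8e-06). The REV-ERB gene NR1D2 read 32.2, 197, 193 and 186 and then 431, 514, 480.2 and 432 (log2 1.30 ± 0.10, adjusted p = 1.1e-05). NR1D1, CIART and PER1 rose by 1.37, 0.89 and 0.45 on the log2 scale. Among the genes that fell were NPAS2 (-0.82), ARNTL (-0.80) and CRY1 (-0.36). DBP, the third PAR bZIP gene, did not pass (log2 -0.09, adjusted p = 0.71). The time of day at which the cultures were lysed is not in the labels, so the hour of collection and the recovery week cannot be told apart.

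**Figure D3:**
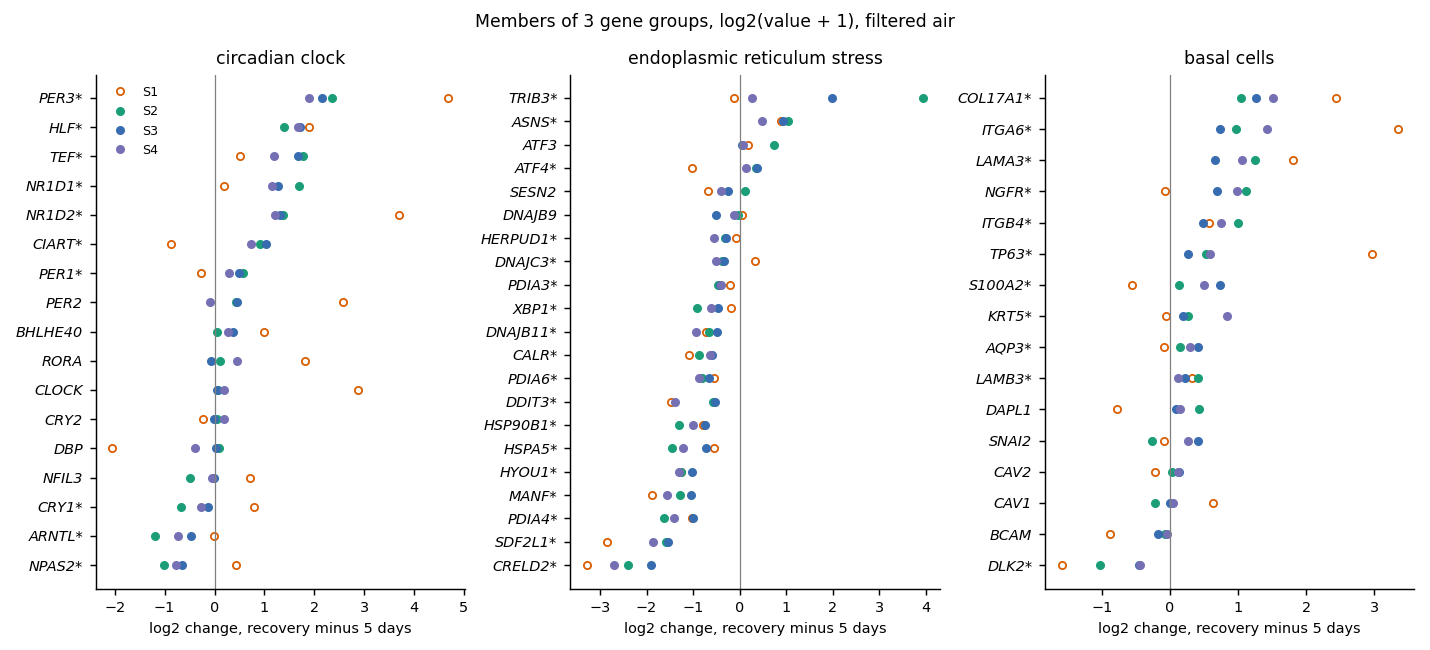
Log2 change from 5 days to recovery of tested members of 3 gene groups in each animal (open points S1), ordered by the fit without S1, where an asterisk marks members that passed in that fit. In the clock panel PER3 and HLF are higher in all 4 animals, in the endoplasmic reticulum panel CRELD2, SDF2L1, PDIA4, MANF and HYOU1 are lower in all 4, and S1 leaves the others in NR1D2, CLOCK, ITGA6 and TP63.

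Most genes of endoplasmic reticulum stress fell. When unfolded proteins accumulate in the endoplasmic reticulum, ATF6 and XBP1 raise its chaperones and folding enzymes, while ATF4 raises genes of amino acid supply. Of 21 members tested, 15 fell and 3 rose, with a median log2 change of −0.69, and the medians in the single animals were −0.67, −0.65, −0.51 and −0.63. CRELD2, a secreted stress protein, read 2020, 623, 504 and 884 at 5 days and 207, 117, 134 and 136 after recovery (log2 -2.33 ± 0.14, adjusted p = 1.6e-06; with 4 animals -2.57 ± 0.24, adjusted p = 0.065).

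The chaperone HYOU1 read 4701, 3709, 2874 and 4072 and then 1966, 1547, 1424 and 1662, with every recovery value below every 5-day value (log2 -1.19 ± 0.08, adjusted p = 2.5e-06). PDIA4, a disulfide isomerase, fell from 6631, 5242, 4744 and 7243 to 3249, 1701, 2378 and 2720.1 (log2 -1.34 ± 0.10, adjusted p = 6.8e-06). MANF, a secreted cofactor of the chaperone BiP, fell from 1937, 1176, 896 and 1236 to 526, 486, 433 and 419.5 (log2 -1.29 ± 0.10, adjusted p = 9.2e-06). HSPA5, which encodes BiP, fell by 1.12, HSP90B1 by 1.01, SDF2L1 by 1.66 and XBP1 by 0.67 on the log2 scale. The 3 members that rose belong to the ATF4 arm: TRIB3 (2.07), the asparagine synthetase ASNS (0.82) and ATF4 itself (0.29). TRIB3 was uneven, with 101, 1.31, 5.90 and 8.34 at 5 days and 92.6, 34.5, 26.5 and 10.3 after recovery. DDIT3, another target of that arm, fell (log2 -0.83, adjusted p = 0.021).

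Most genes of the heat shock and chaperone list fell too. Of 16 heat shock and chaperone genes tested, 13 fell and 1 rose, with a median log2 change of −0.53 and medians between −0.28 and −0.63 in the 4 animals. The HSP90 cochaperone FKBP4 read 3291, 1877, 1795 and 1964 at 5 days and 1090, 914, 1135 and 1006 after recovery (log2 -0.89 ± 0.09, adjusted p = 3.7e-05). SERPINH1, the collagen chaperone HSP47, fell from 1746, 1224, 1199 and 1216 to 841, 693, 769 and 698, and the 3 animals without S1 were nearly equal at each time (log2 -0.75 ± 0.08, adjusted p = 6.7e-05). DNAJA1, a cochaperone of HSP70, read 2474, 2715, 3464 and 3718 and then 1601, 1742, 2015 and 1976 (log2 -0.78 ± 0.07, adjusted p = 3.7e-05). The mitochondrial chaperonin HSPD1 fell from 1852, 2771, 2753 and 3018 to 2019, 1809.5, 1788 and 1594 in S2 to S4, and S1 did not follow (log2 -0.72 ± 0.08, adjusted p = 8.8e-05). HSP90AA1 and the transcription factor HSF1 fell by 0.70 and 0.55 on the log2 scale, and BAG3 was the member that rose (0.33, adjusted p = 0.016).

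Hypoxia and glycolysis genes fell in part. Of 28 gene identifiers tested, which carry 27 symbols, 12 fell and 3 rose, and the median log2 change was −0.11. Beside PFKFB4, HK2, the inducible hexokinase, read 729, 4558, 5379 and 2779.7 at 5 days and 1385, 1675, 2302 and 1104 after recovery. In S2 to S4 the log2 fold change was -1.33 ± 0.07 (adjusted p = 7.3e-07), whereas S1 started from the lowest level and was higher after recovery, so that the value with 4 animals was -0.77 ± 0.41 (adjusted p = 0.32). NDRG1, a marker of low oxygen in many epithelia, fell from 30285, 36462, 28357 and 29199 to 12687, 20875, 14364 and 14892 without overlap (log2 -0.92 ± 0.08, adjusted p = 1.8e-05). The phosphofructokinase PFKP fell by 0.56 and the oxygen sensor EGLN3 by 0.61. ADM (adrenomedullin), PDK1 and ALDOC rose by 0.61, 0.51 and 0.29. Abundant glycolytic enzymes such as GAPDH (0.14), ENO1 (0.17) and LDHA (-0.09) did not pass.

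Of 22 genes of cholesterol synthesis and its control, 4 fell and 1 rose, and the median was −0.00064. INSIG1, which retains the SREBP activators of the pathway, read 1191, 3815, 1431 and 1479 and then 955, 1789.7, 940.5 and 1147 (log2 -0.69 ± 0.11, adjusted p = 0.0012). The sterol carrier STARD4 fell in S2 to S4 (log2 -0.54 ± 0.10, adjusted p = 0.0028), and SREBF2 rose slightly (log2 0.23 ± 0.07, adjusted p = 0.026).

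Most basal cell genes rose. Of 17 members tested, 11 rose and 1 fell, and the median log2 change was 0.43. The median was −0.06 in S1 and 0.41, 0.41 and 0.50 in S2 to S4. The genes with the largest changes included parts of the hemidesmosome and of its laminin ligand. COL17A1, a transmembrane collagen of the hemidesmosome, read 1958, 10409, 4380 and 4522 at 5 days and 10594, 21406, 10571 and 12858 after recovery. It was higher in all 4 animals and the groups did not overlap (log2 1.27 ± 0.09, adjusted p = 3.9e-06; with 4 animals 1.56 ± 0.24, adjusted p = 0.092).

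ITGA6, the integrin chain of the same structure, rose from 272, 1629, 1248 and 818 to 2767, 3207, 2077 and 2196 (log2 1.04 ± 0.11, adjusted p = 5.7e-05). Laminin alpha 3 (LAMA3) read 739.7, 1954, 1694 and 1480.3 and then 2582, 4623, 2688 and 3098 (log2 0.99 ± 0.10, adjusted p = 4.1e-05). ITGB4 and LAMB3 rose by 0.75 and 0.25. NGFR, a surface marker of basal cells, read 1823, 1022, 1053 and 679 and then 1727, 2208, 1700.2 and 1348, with a rise in S2 to S4 and none in S1 (log2 0.93 ± 0.09, adjusted p = 3.5e-05). KRT5, the basal keratin, was 46084, 27725, 31595 and 23738 at 5 days and 44317, 33427, 36078 and 42334 after recovery, a smaller change (log2 0.43 ± 0.11, adjusted p = 0.017). TP63, the transcription factor of the basal state, read 84.8, 413, 495 and 391 and then 669, 598, 597 and 586 (log2 0.46 ± 0.10, adjusted p = 0.0049). DLK2 was the member that fell (log2 -0.64, adjusted p = 0.021).

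Of 14 squamous and cornified envelope genes tested, 8 rose and none fell, with a median of 0.77, and the animals' own medians were −0.17, 0.57, 1.17 and 1.15. ECM1, an extracellular protein of differentiating epidermis, read 438, 167, 46.5 and 106 at 5 days and 293, 458, 212 and 552 after recovery (log2 2.00 ± 0.17, adjusted p = 1.7e-05). The envelope precursor involucrin (IVL) rose by 1.95, the crosslinking enzyme TGM1 by 1.55 and SPRR3 by 1.34. EMP1, a membrane protein of squamous epithelia, was higher in all 4 animals, from 293, 226, 256 and 315 to 749.9, 811, 577 and 739.6 (log2 1.41 ± 0.13, adjusted p = 2.4e-05). KRT10 (-0.06) and KRT16 (-0.08), keratins of keratinizing epithelium, did not pass. The list held 30 members, of which 24 had a match by symbol. Among those below the filter, KRT1, DSG1 and KRTDAP were at 0, and TGM3 and RHCG did not exceed 16.1 and 16.2.

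Of 22 tight junction and desmosome genes, 11 rose and 1 fell, with a median of 0.22. DSG3, a desmosomal cadherin of basal and squamous layers that the squamous list also holds, read 56.4, 184, 100.2 and 96.2 and then 414, 432, 252 and 316 (log2 1.42 ± 0.13, adjusted p = 3.3e-05). DSC3 rose from 8.39, 243, 219 and 179 to 369, 458, 433 and 468 (log2 1.09 ± 0.12, adjusted p = 7.6e-05). TJP1, the scaffold ZO-1 of tight junctions, rose from 307, 1698, 1369 and 1543 to 2376, 3299, 2495 and 2544 (log2 0.85 ± 0.07, adjusted p = 2.1e-05). In these 3 genes the 5-day library of S1 was below the other 5-day libraries. CLDN3 was the member that fell (log2 -0.40, adjusted p = 0.0058).

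Of 14 club and secretory genes tested, 8 fell and none rose, with a median of −0.62, and the medians of the animals were −1.66, −0.90, −0.46 and −0.52. VMO1, a secreted protein and among the most abundant transcripts here, read 312940, 42732, 89101 and 73742 at 5 days and 58323, 10981, 37600 and 30172 after recovery. It was lower in all 4 animals (log2 -1.50 ± 0.13, adjusted p = 1.7e-05), and the 5-day library of S1 was the highest. TCN1, a vitamin B12 carrier of secretory cells, read 1041, 577, 1476 and 3122 and then 263, 191, 599 and 1240.2. Levels differed between animals, so the groups overlapped, but the change was even in S2 to S4 (log2 -1.41 ± 0.09, adjusted p = 1.6e-06).

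PIGR, which carries IgA across the epithelium, fell from 49171, 5196, 9148 and 6397 to 23633, 1662, 5464 and 2423 (log2 -1.26 ± 0.13, adjusted p = 5.3e-05). The antiprotease SLPI fell from 4962, 887, 1317 and 821 to 1332, 440.4, 922 and 509 (log2 -0.74 ± 0.10, adjusted p = 3.4e-04). BPIFB1, KRT19, lysozyme (LYZ) and ceruloplasmin (CP) fell by 0.37 to 1.27 on the log2 scale. SCGB1A1 read 42.8, 18.1, 37.7 and 11.4 and then 12.9, 3.43, 32.1 and 13.1, too low and too uneven to pass (log2 -0.72 ± 0.47, adjusted p = 0.29).

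Of 12 goblet cell and mucin genes tested, 5 fell and 1 rose, with a median of −0.26. CREB3L1, a transcription factor of secretory cells, read 3611, 786, 1124 and 1621 and then 1606, 359, 613 and 1218 (log2 -0.81 ± 0.12, adjusted p = 5.3e-04). AGR2, a disulfide isomerase that folds mucins, fell from 36626, 20621, 18392 and 29060 to 16153, 12401, 14299 and 20818 (log2 -0.53 ± 0.09, adjusted p = 0.0012). SPDEF, the goblet cell regulator, fell by 0.75, and CLCA1 by 0.57, while CLCA4 rose by 1.35. The gel-forming mucin MUC5B read 3397, 48.3, 2631 and 3667 at 5 days and 8516, 1.11, 2858 and 5164 after recovery. It was nearly lost in S2 and higher in the other 3 animals, and did not pass (log2 -1.31 ± 0.67, adjusted p = 0.18). Without S2 as well as S1, in a fit of S3 and S4, its log2 fold change was 0.31 (adjusted p = 0.0275). Without S4 as well as S1 it was −2.21, so S2 decides the direction. That last fit held S2 and S3, which moved in opposite directions. Its p would not measure the spread between these animals and is not given. MUC5AC had no match by symbol and is not analysed here.

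Of 19 regulators of multiciliogenesis tested, 10 fell and none rose, with a median of −0.37, and of 29 axoneme and cilium genes 5 fell and 1 rose, with a median of 0.02. CCNO, a cyclin needed for mass production of centrioles, read 376, 67.3, 182 and 245 at 5 days and 6.54, 37.8, 24.1 and 19.5 after recovery (log2 -2.42 ± 0.39, adjusted p = 0.0011). The centriole kinase PLK4 fell by 1.85 and MCIDAS, which starts the programme, by 1.78. RFX2, a transcription factor of cilium genes, fell from 328, 695, 1489 and 740.3 to 373, 385, 705 and 480.4 in S2 to S4 and not in S1 (log2 -0.85 ± 0.10, adjusted p = 1.1e-04). FOXJ1, the master regulator of motile cilia, read 3198, 3097, 7420.4 and 4676 and then 1926, 2086, 4629 and 3796 (log2 -0.52 ± 0.08, adjusted p = 9.1e-04).

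Among cilium genes, DNAH11, an outer arm dynein, was the member that rose, from 115, 719, 2468 and 917 to 1003, 1095, 2537 and 1784 (log2 0.53 ± 0.13, adjusted p = 0.011). TEKT2, RSPH1, PIFO, DNAAF1 and ARMC3 fell by 0.29 to 0.44. ARMC3 read 159, 620.1, 1718 and 919 and then 434, 379, 1183 and 879: it was higher in S1 and lower in S2 to S4, so its log2 fold change was 0.03 ± 0.36 with 4 animals (adjusted p = 0.96) and -0.44 ± 0.11 without S1 (adjusted p = 0.014). DNAH5 (-0.13) and TPPP3 (-0.21) did not pass. Of 5 genes of rare airway cells (ionocytes, tuft and neuroendocrine cells) that were high enough to test, none passed.

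Notch genes, which steer the choice between secretory and ciliated cells, had 13 members tested, of which 5 fell and 2 rose, the latter near the 12.6% of all genes that rose. The ligand JAG1 rose from 38.7, 179, 185 and 172 to 535, 403, 308 and 296 (log2 0.90 ± 0.12, adjusted p = 4.1e-04). The ligand JAG2 moved the other way, from 1852, 1058, 1002 and 1352 to 598, 615, 583 and 709 (log2 -0.83 ± 0.08, adjusted p = 3.7e-05). In both genes the groups did not overlap. LFNG, a glycosyltransferase that tunes Notch receptors, fell from 260.1, 105, 259.8 and 267 to 116, 61.8, 120.3 and 102 (log2 -1.08 ± 0.16, adjusted p = 5.7e-04), and the target gene HES1 fell from 912, 569, 510.4 and 399.5 to 379, 305, 398 and 268 (log2 -0.61 ± 0.11, adjusted p = 0.0026).

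**Figure D4:**
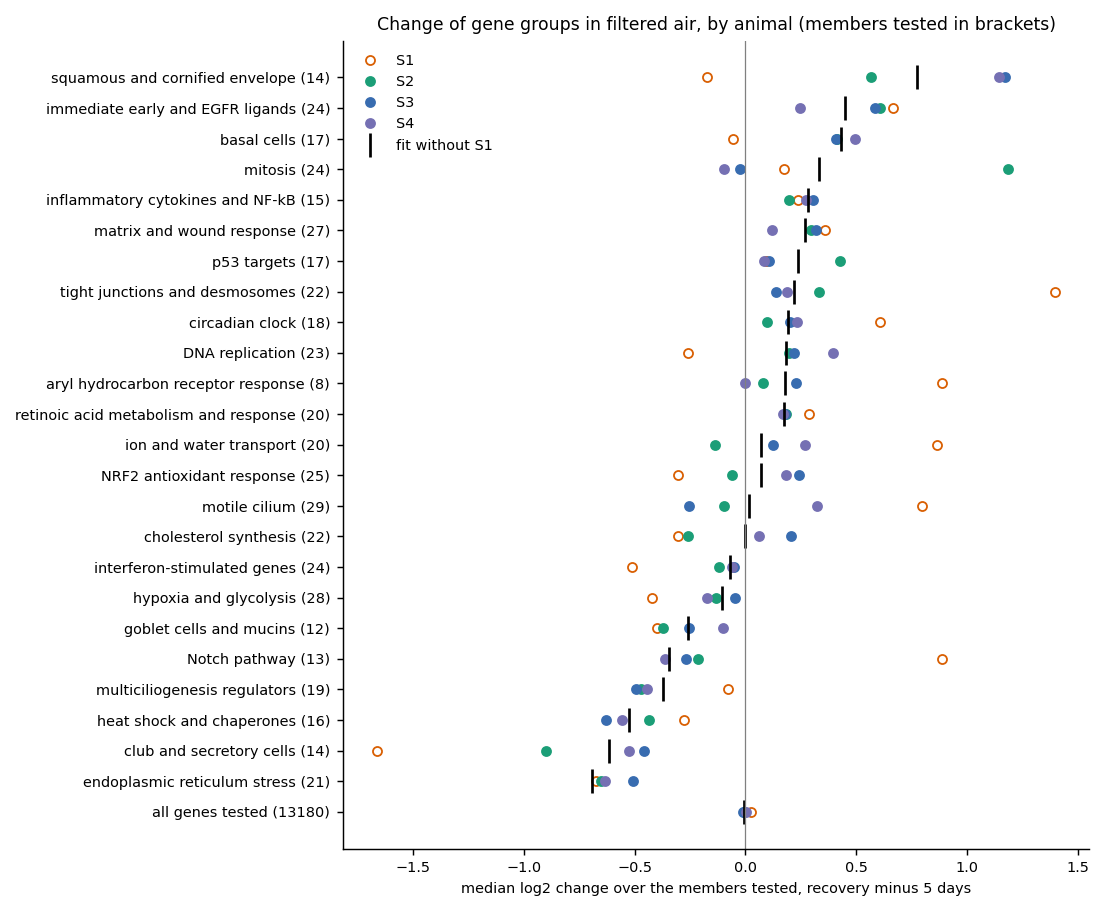
Median log2 change from 5 days to recovery over the tested members of each gene group, in each animal (circles, S1 open) and in the fit without S1 (bars), with all genes tested at the bottom. Endoplasmic reticulum stress, club and secretory cells and heat shock lie below 0 in all 4 animals. So do goblet cells and mucins, multiciliogenesis regulators, hypoxia and glycolysis, and interferon-stimulated genes, with bars nearer 0. S1 sits apart from the other animals in squamous genes, junctions, Notch genes and ion transport.

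Cell cycle genes did not move as a block. Of 24 mitosis genes tested, 2 rose and 1 fell, against 12.6% and 12.4% over all genes, with a median of 0.33. The animals' medians were 0.18, 1.18, −0.03 and −0.10, with S2 above the other animals. MKI67, a marker of cycling cells, read 59.7, 31.5, 95.03 and 56.5 at 5 days and 257, 168, 164 and 213 after recovery. It was higher in all 4 animals (log2 1.68 ± 0.25, adjusted p = 6.4e-04), yet stayed below the 1-day values of 1318, 449.9, 569.6 and 820.1. CENPF rose from 114, 59.8, 143 and 102 to 154, 144, 164 and 154 (log2 0.68 ± 0.19, adjusted p = 0.023).

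CDK1, the kinase of mitotic entry, went the other way, from 353, 101, 207 and 266 to 70.4, 63.0, 106 and 79.0 (log2 -1.12 ± 0.20, adjusted p = 0.0019). Both CDK1 and the centriole genes above are also expressed in cells that amplify centrioles without dividing. Of 23 DNA replication genes, 4 rose and 2 fell, near the shares of 12.6% and 12.4% over all genes. The helicase subunits MCM4, MCM5 and MCM6 and the clamp loader subunit RFC3 rose by 0.61 to 0.84, with MCM4 at 283, 219.8, 256 and 223 and then 466, 361, 351 and 364 (log2 0.62 ± 0.11, adjusted p = 0.0019). RRM2, a ribonucleotide reductase subunit, fell from 434, 142, 259 and 318 to 177, 112, 93.4 and 117 (log2 -1.08 ± 0.20, adjusted p = 0.0026).

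Of 24 immediate early genes and ligands of the EGF receptor tested, 11 rose and 1 fell, with a median of 0.45. DUSP6, a phosphatase induced by ERK that dampens it, read 143, 184, 162 and 141 at 5 days and 400.1, 468, 302 and 251 after recovery without overlap (log2 1.02 ± 0.13, adjusted p = 2.3e-04). The ligand genes TGFA, AREG and HBEGF rose by 0.60, 0.90 and 0.77 on the log2 scale. The transcription factors EGR2, FOSL1, MYC and KLF4 rose by 1.72, 1.46, 0.80 and 0.60. EGR1 read 652, 392, 562 and 539 and then 1025, 599, 765 and 681 (log2 0.46 ± 0.09, adjusted p = 0.0033). DUSP1, a phosphatase that acts on stress kinases, was the member that fell (-0.67).

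Matrix and wound response genes rose in part: 9 of 27 rose and none fell. The collagenase MMP13 read 54.7, 309.9, 83.7 and 211 and then 122, 614, 343 and 413 (log2 1.32 ± 0.18, adjusted p = 3.4e-04). Tenascin C (TNC), a matrix protein of wounds, rose from 151, 190.3, 253 and 349 to 1121, 385, 532 and 577 (log2 0.94 ± 0.11, adjusted p = 1.1e-04). Vimentin (VIM) and MMP9 rose by 0.96 and 0.66. Fibronectin (FN1) read 389.8, 369, 989 and 3511 and then 669, 485, 1407 and 4287: the rise was small beside the differences between animals, but each animal was higher (log2 0.40 ± 0.08, adjusted p = 0.0032).

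Of 15 inflammatory cytokine and NF-kB genes, 4 rose and none fell. IL1A, an alarmin cytokine, read 14.4, 4.22, 2.07 and 4.18 at 5 days and 76.2, 46.8, 24.9 and 22.3 after recovery (log2 2.82 ± 0.46, adjusted p = 0.0012), from levels of a few reads. S100A8, a calprotectin subunit, rose in S2 to S4 and read 632, 67.3, 87.8 and 71.1 and then 315, 97.7, 217 and 237, with the 5-day library of S1 the highest (log2 1.18 ± 0.21, adjusted p = 0.0018). CXCL8 (0.33, adjusted p = 0.55) and NFKBIA (0.06, adjusted p = 0.71) did not pass. Of 24 interferon-stimulated genes, 4 fell, near the 12.4% of all genes, and 1 rose. BST2 (tetherin) fell from 422, 343, 281 and 213 to 198, 183, 177 and 143 (log2 -0.71 ± 0.12, adjusted p = 0.0017), and MX2 was the member that rose (0.48, adjusted p = 0.043).

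Of 25 NRF2 target genes, 9 rose, with a median of 0.07, and 3 fell, as did 12.4% of all genes. Beside SLC7A11, sulfiredoxin (SRXN1) read 1561, 2047, 1465 and 1767 and then 2481, 2996, 2256 and 2743 (log2 0.60 ± 0.07, adjusted p = 1.1e-04). PGD, an enzyme of the pentose phosphate pathway, rose from 4061, 4533, 3602 and 3766 to 4878, 6774, 5569 and 5714 (log2 0.60 ± 0.07, adjusted p = 8.6e-05). Thioredoxin reductase (TXNRD1) and GCLM rose by 0.85 and 0.63, while NQO1 (0.24, adjusted p = 0.091) and HMOX1 (0.06, adjusted p = 0.89) did not pass. EPHX1, an epoxide hydrolase, fell from 3915, 1205, 3134 and 1539 to 1609.6, 776, 1802 and 972 (log2 -0.70 ± 0.07, adjusted p = 6.9e-05), and GSTM3 and GSTA1 fell by 1.12 and 0.35.

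Of 8 aryl hydrocarbon receptor genes tested, CYP1B1 included, 2 rose and 2 fell. CYP1A1, which did not exceed 1.86 in any library, and CYP1A2, at 0, were below the filter. AHRR, the repressor of the receptor and one of its targets, read 989, 1429.8, 988 and 1169.8 and then 811, 1088, 812 and 749 (log2 -0.44 ± 0.09, adjusted p = 0.0035). ALDH3A1, an aldehyde dehydrogenase abundant in airway epithelium, fell from 101420, 14556, 38749 and 28618 to 17698, 8834, 19306 and 19569 (log2 -0.76 ± 0.09, adjusted p = 1.5e-04). TIPARP rose by 0.27 (adjusted p = 0.037).

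Of 17 p53 target genes, 6 rose and none fell. GADD45A read 281, 152, 142 and 162 and then 312, 380.4, 284 and 239, with a smaller change in S1 (log2 0.96 ± 0.15, adjusted p = 8.4e-04). MDM2, which degrades p53, rose from 945, 1434, 1844 and 1480.2 to 2153, 2397, 2188 and 2648 (log2 0.61 ± 0.10, adjusted p = 0.0014). Of 20 ion and water transport genes, 6 rose and 1 fell. Beside SCNN1G, the sodium channel subunit SCNN1A rose by 0.40 (adjusted p = 0.0032), whereas SCNN1B did not pass (0.09, adjusted p = 0.55). The chloride channel ANO1 fell (log2 -0.29, adjusted p = 0.033), and CFTR did not pass, at -0.45 (adjusted p = 0.34).

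The same week was also measured in cultures of the same animals that had received diluted wood smoke, with other libraries. There 2040 genes passed with 4 animals (15.5% of the genes tested), 1070 higher (8.12%) and 970 lower (7.36%). Of the genes that passed in air without S1, 819 passed in smoke in the same direction (24.9% of the air list and 40.1% of the smoke list) and 83 in the opposite direction (2.52% and 4.07%). Genes past the threshold in air alone are not thereby different from smoke, so the difference of the changes was tested, smoke minus air. It passed for 101 genes with 4 animals (0.766%) and for 1017 without S1 (7.72%), 505 higher (3.83%) and 512 lower (3.88%). The latter count depends on S4: without S1 and S4 it was 20 genes, and 604 and 506 without S1 and S2 or S1 and S3. In smoke alone the count was 424 without S3, 493 without S4, 1038 without S1 and 2205 without S2. List counts and single-gene values in smoke below are of the fit of 4 animals. Differences given below are of the fit without S1 unless 4 animals are named, so they are not the smoke value minus the air value. These differences use the same air libraries as the air changes. Genes and lists that changed in air are therefore not an independent choice for this test, and the shares over all genes do not allow for that.

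Several of the largest air changes differed from smoke. CYP1B1 in smoke read 303, 148, 311 and 334 at 5 days and 464, 627, 305 and 291 after recovery (log2 0.62 ± 0.31, adjusted p = 0.2), and the difference of the changes was -2.59 ± 0.46 (adjusted p = 0.0058). SLC7A5 in smoke read 477, 285, 229 and 316 and then 506, 376, 324 and 271, with a difference of -1.78 ± 0.18 (adjusted p = 5.2e-04). PFKFB4 in smoke read 508, 1186, 332 and 611 and then 588, 624, 484 and 518, with a difference of 2.15 ± 0.27 (adjusted p = 9.6e-04). None of the 3 passed in smoke, where the adjusted p was 0.33 for SLC7A5 and 0.75 for PFKFB4.

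Many chaperone genes and some clock genes differed likewise. In smoke 6 of 21 endoplasmic reticulum stress genes fell and 1 rose, against 7.36% and 8.12% of all genes tested. The difference passed for 11 of 21, all higher in smoke minus air (3.83% of all genes tested passed in that direction). CRELD2 fell less in smoke (log2 -0.73), with a difference of 1.67 ± 0.19 (adjusted p = 7.4e-04). Of 16 heat shock and chaperone genes the difference passed for 10 in that direction and for 1 in the other. For FKBP4 it was 1.09 ± 0.13 (adjusted p = 7.6e-04). For clock genes the difference passed for 4 of 18, all lower in smoke minus air (3.88% of all genes tested passed in that direction). HLF and PER3 differed by -1.29 (adjusted p = 7.5e-04) and -1.43 (adjusted p = 0.014).

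For some genes the 2 exposures went opposite ways. MKI67 rose in air and in smoke read 410.4, 59.8, 167 and 179.5 at 5 days and 169.9, 58.9, 36.8 and 21.8 after recovery (log2 -1.61 ± 0.39, adjusted p = 0.026; difference -3.40 ± 0.58, adjusted p = 0.0049). KRT5 rose in air and fell in smoke (log2 -0.74 ± 0.16, adjusted p = 0.018; difference -1.38 ± 0.18, adjusted p = 0.0012). NOS2, the inducible nitric oxide synthase, read 548, 27.4, 63.5 and 111 and then 817, 95.9, 163 and 151 in air (log2 1.19 ± 0.23, adjusted p = 0.0033) and fell in smoke (log2 -1.57 ± 0.34, adjusted p = 0.019; difference -3.22 ± 0.39, adjusted p = 7.5e-04). RSRP1, an arginine and serine rich nuclear protein, fell in air from 674, 573, 482 and 719 to 229.9, 169, 231 and 237 and rose in smoke by 0.95 (difference 2.28 ± 0.18, adjusted p = 7.4e-05).

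Some genes changed in the same direction in both exposures. CDC20B and CCNO fell in smoke (log2 -5.13 and -3.37), and the differences from air did not pass (adjusted p = 0.6 and 0.74). CYP26A1 rose in smoke by 1.44 (adjusted p = 0.0015), less than in air (difference -0.80 ± 0.20, adjusted p = 0.029). Of the 20 retinoic acid genes 3 rose and 4 fell in smoke, against 8.12% and 7.36% of all genes tested. The difference passed for 5, all lower in smoke minus air (3.88% of all genes tested passed in that direction). TCN1 fell in smoke by 1.16, and the difference of 0.11 ± 0.30 did not pass (adjusted p = 0.86).

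**Figure D5:**
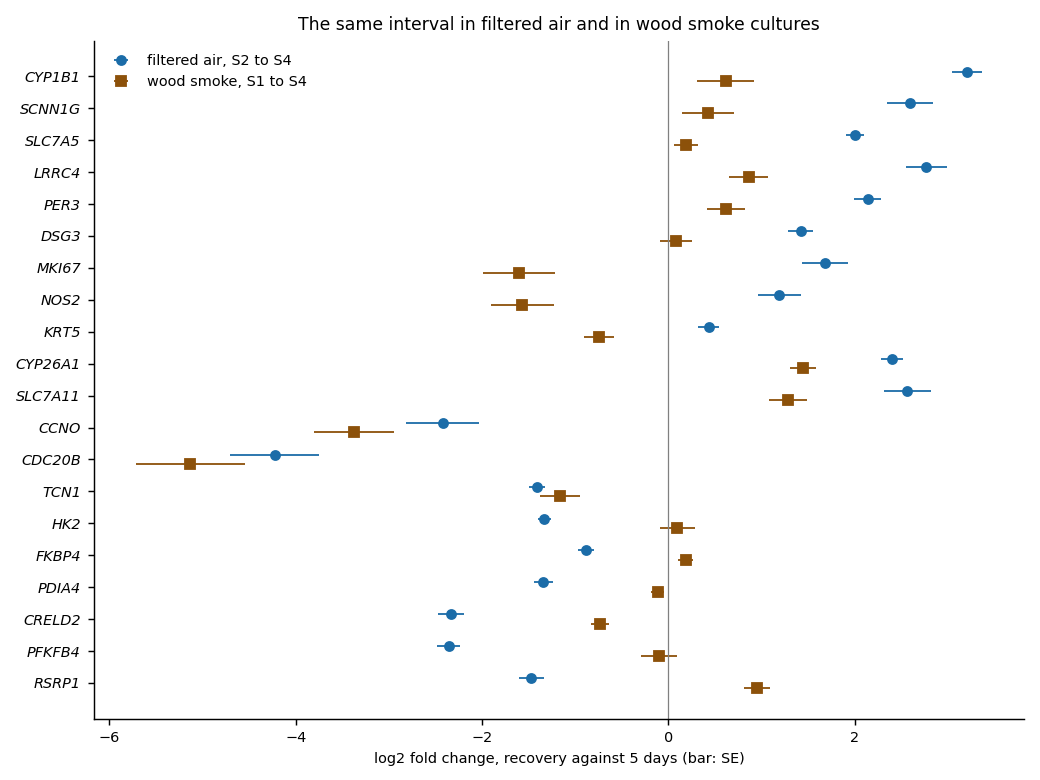
Log2 fold change from 5 days to recovery with its SE in filtered air (circles, S2 to S4) and in wood smoke cultures (squares, S1 to S4) for 20 genes chosen after their values were seen. SLC7A5, PFKFB4 and FKBP4 changed in air and lie near 0 in smoke, CYP1B1 lies at 3.20 in air and 0.62 in smoke, MKI67, NOS2, KRT5 and RSRP1 lie on opposite sides of 0, and CDC20B, CCNO, TCN1 and CYP26A1 lie on the same side.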

How the data were processed

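Per the labels, poly-A selected RNA libraries were made from 0.5 µg of total RNA, and the submitters' processing notes list RSEM, Bowtie2, Trim Galore and FastQC, without versions. The genome build, annotation and normalization tool were not given in the sources used here. The authors deposited 1 table of 35432 genes, whose values are a normalized signal per gene, called normalized counts here: they are not whole numbers, and each library's median ratio to the geometric mean was 1.01. Of the low values 81.9 to 84.0% were whole multiples of a library's own step within 0.1 of it, so whole reads were not recovered and no count model was run. Depth was approximated as total over step, and precision is the spread between animals.

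Values were analysed as log2(value + 1), so folds of low genes are understated. Genes that reached 10 in 4 or more of the 8 libraries were fitted with limma 3.58.1 in R 4.3.3, with variance trend, animal as an additive block, two-sided tests and Benjamini-Hochberg adjustment over all 13180 genes. Numbers mark the animal in the labels. Deviations from the group means correlated at 0.345 to 0.573 within an animal and at −0.265 to 0.027 between animals. The difference of smoke and air changes was fitted to 16 libraries. Alternatives left out animals, the block, the filter or the variance trend, or changed pseudocount, scaling, threshold, weights or library set.

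Genes were named by rule: the 12 largest changes in each direction among genes with a mean of at least 50, up to 4 members of each of 28 lists with the smallest p, 10 standing markers, and the 5 largest differences from smoke and 8 largest departures of the 5-day S1 library in each direction. Other list members named were chosen after their values were seen. The gene lists and the comparison itself were chosen with earlier results of these data known. Of 624 list genes, 483 were tested, 105 were below the filter and 39 had no match by symbol. List counts and medians carry no test. Some genes are not reported here.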

Additional observations from a re-analysis of the deposited data

Results flagged for a closer look

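A value was singled out where 1 library lay far from the other 3 of its group on the log2 scale, which chance alone does in about 1 group in 20. Among the 148 named genes this held for 25 at 5 days and 7 after recovery. At 5 days the library was that of S1 for 20 of the 25. This is in part set by the choice of genes, since 14 of the 148 were named only for the departure of that library, and without them 16 genes remained at 5 days, 11 with S1. Below the other 3 animals S1 had PER3 at 8.31 normalized counts, NR1D2 at 32.2, TP63 at 84.8, TJP1 at 307, DSC3 at 8.39, JAG1 at 38.7, NRIP1 at 320.3 and KDR at 3525. The stem cell factor gene KITLG was at 2.20, the integrin gene ITGB8 at 6.28, ATP13A3 at 165, TBC1D32 at 1.71, and CNEP1R1, LYSMD4 and IL17RD at 0. Above the other 3 animals S1 had RPL41 at 7624 against 867 ± 101 (SD, n = 3), MSMP at 890.5, S100A8 at 632, FKBP4 at 3291 and SERPINH1 at 1746.

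The other 5-day libraries that stood apart were S2 for IL1RN (881), LFNG (105), VWF (50.9) and MUC5B (48.3) and S3 for OAS1 (285). After recovery they were S1 for MCM4 (466) and TP63 (669), S2 for CXCR2 (8.94), ALDH3A1 (8834), MUC5B (1.11) and RSRP1 (169) and S4 for COL10A1 (88.3). S2 thus had a low MUC5B level at both times. Over whole libraries, S1 at 5 days stood apart in the share of mitochondrially encoded genes (8.49%), the share of the 10 most abundant genes (18.2%), the median correlation with other libraries (0.860) and the approximate depth (9.51 M reads). The 1-day air library of S1 had shares of 8.82% for mitochondrially encoded genes and 15.0% for the 10 most abundant.

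For 22 named genes the change from 5 days to recovery differed between smoke and air cultures with all 4 animals (limma, adjusted p under 0.05). Among them it was lower in smoke, given as smoke minus air on the log2 scale, for MKI67 (−3.39), NOS2 (−2.60), CYP1B1 (−2.57), TXNRD3 (−2.11), LRRC4 (−1.97), SLC7A5 (−1.92), CEMIP (−1.50), HLF (−1.24) and EMP1 (−1.04). It was higher in smoke for RSRP1 (2.44), PFKFB4 (2.27), SAP30 (2.00), PPP1R3G (1.98), CELF4 (1.94), CRELD2 (1.84), FKBP4 (1.25), PDIA4 (1.15), MANF (1.13), DNAJA1 (0.91), HYOU1 (0.85) and SERPINH1 (0.81). SAP30, a subunit of a histone deacetylase complex, read 176, 189, 133 and 155 at 5 days and 50.1, 51.2, 54.8 and 83.7 after recovery in air, and 81.2, 146, 67.0 and 101 and then 121, 150.3, 115 and 178 in smoke. None of the 22 passed without S4, and 1 or 2 passed without S3 or S2. The count of 22 is in part set by the choice of genes, since the 5 largest differences in each direction were named by this same test. Over all genes tested, 101 passed (0.766%).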

How the results depend on the processing

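With all 4 animals, 4 genes passed, and leaving out 1 animal gave 0 to 3288 genes: 3288 without S1 and 0 without S2, S3 or S4, where 1420, 1779 and 1500 genes had an unadjusted p under 0.05 (limma). Other settings gave 163 genes at an adjusted p of 0.1, 12 with quantile normalization, 3256 with library weights (0.103 for the pair of S1 and 1.90 to 2.60 for the others), and, with the replicate block, 3988 in a fit of all 24 libraries and 3800 without the 5-day library of S1. Without the replicate block it was 16 for the 8 libraries and 1640 for all 24. Without S1, 3288 genes passed: leaving out another animal gave 2257 to 2748, no replicate block 185, no variance trend 553, a log2 change of at least 1 besides 382, and no filter on low values 0, with 4695 at an unadjusted p under 0.05. The difference of smoke and air gave 101 genes (0 to 1017 when 1 animal was left out, 1 without the block), and without S1 1017 (20 to 604 when another was left out, 15 without the block). The change in smoke gave 2040 genes (424 to 2205 when 1 animal was left out, 0 without the block, with 1838 at an unadjusted p under 0.05). Direction reversed for ARMC3 (0.03 with 4 animals, −0.44 without S1, adjusted p = 0.0136, and −0.44 to 0.28 when any 1 animal was left out) and MUC5B (−1.31 without S1, 0.31 without S1 and S2, adjusted p = 0.0275, and −2.21 to 0.31 when a second animal was left out). The causes were not tested. Pseudocount, library totals and the stricter filter kept both counts in filtered air within 1.5 times, and of the 127 named genes called without S1, 127 were lost with no filter on low values, 100 without the block and 68 with no variance trend. The lower approximate depth of the S1 library at 5 days limits its low values.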

Other observations

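The 5-day library of S1 was also set against the 1-day and recovery libraries of the same animal, relative to the same difference in S2 to S4. By that measure 1773 of the 13180 genes stood more than 1 above and 2668 more than 1 below on the log2 scale. Ribosomal protein genes stood above as a group, with a median of 1.16 over 76 genes and 55 of them past 1. Tight junction and desmosome genes stood below, with a median of −1.28 and 12 of 22 past −1, as did Notch genes (−0.996, 6 of 13) and ion and water transport genes (−0.81, 8 of 20). Club and secretory genes stood above, with a median of 0.95 and 6 of 14 past 1.

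Among the named genes that stood highest in that library were HIC1, a transcriptional repressor, at 358, 24.5, 63.0 and 109 in the 5-day libraries of S1 to S4 and 106, 72.2, 129.9 and 139 after recovery, and CCDC167 at 208, 75.9, 78.4 and 105 and then 13.7, 67.6, 24.4 and 13.6. In the other animals CCDC167 fell over the recovery week (log2 -1.56 ± 0.38, adjusted p = 0.012, limma without S1) and HIC1 rose (0.97 ± 0.22, adjusted p = 0.0087). EDN2, which encodes a vasoconstrictor peptide of the endothelin family, rose in air from 191, 498, 369 and 209 to 222, 887, 1309 and 657 (log2 1.43 ± 0.15, adjusted p = 6.7e-05, without S1).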
